A study of Caenorhabditis elegans with 3 samples.

Results

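The major sperm proteins (MSPs) of Caenorhabditis elegans, the related sperm-specific proteins of the ssp family and the small nematode-specific peptides of the nspd family were examined in early young adult hermaphrodites. Members were taken by name, as every gene whose only listed symbol starts with msp-, ssp- or nspd- and that had a value on all 3 arrays. This gave 49 genes (51 probes), 30 msp, 11 ssp and 8 nspd, of 15078 genes measured in all. Of the 60 genes with such names in the RefSeq annotation of WBcel235, 11 had no probe listed under their symbol, 6 of them annotated as pseudogenes.

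The data come from 3 two-colour DNA microarrays, each with mRNA of 1 prep of hermaphrodites, labelled as early young adults, in channel 2 and a common pool labelled as mixed wild-type mRNA in channel 1. The labels do not give the genotype or age in hours of the hermaphrodites, nor the stages or sexes that went into the pool. What was measured is the worms' signal over that of the pool on the log2 scale, so that a value of 1 means a doubling. Whether the preps were separate cultures is not stated, so p-values rest on prep-to-prep spread that may be technical. Each prep was on its own array, and the array titles end in what read as different dates. Differences between preps and between arrays or array dates can therefore not be told apart. The sign of the ratio was read as worms over pool from the channel order in the labels and from the adult cuticle collagens col-62, col-19 and col-7, whose means lay between 2.51 and 2.69 with that sign. Since they helped to set the sign, they are no separate check of the stage. No source used here names the dye of either channel. With the other sign every direction below would turn.

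MSPs are small cytosolic proteins that polymerise into the filaments by which the amoeboid sperm of nematodes crawl, in the place that actin holds in other crawling cells. During spermatogenesis they are stored in the fibrous bodies of developing sperm, and MSP released from sperm signals to oocytes and to the gonadal sheath to start oocyte maturation, ovulation and contraction. A hermaphrodite makes its sperm first, late in larval life, and then turns to oocytes. The msp genes are many near-identical copies, so on an array signal may be shared between copies and the value of any single copy is uncertain. In whole worms, a difference in the number of sperm-forming cells and one in RNA per cell cannot be told apart.

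Nearly all members were above the mixed pool in the young adults. Of the 49 genes, 48 had a mean over it, and 45 of these passed limma's one-sample test (threshold 0.05 after Benjamini-Hochberg adjustment), while 4 members in all did not. None was below it, against 22.2% of all genes tested. With variances left unmoderated across genes, that is in an ordinary one-sample t test, 0 of the 49 members and 0 of all genes passed after the same adjustment. An unadjusted p under 0.05 in that fit was reached by 45 members and by 5400 of all 15078 genes. The share of members above was 91.8%, against 21.7% of all genes tested. The median of the members was 2.17 on the log2 scale, 4.49-fold over the pool, against 0.00 for all genes. Of the members, 44 were above by at least 1, a size reached by 5.8% of all genes, and 30 by at least 2, which 0.829% of all genes reached. Members held 27 of the 100 highest places among all genes and 6 of the first 20, while making up 0.325% of the genes.

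**Figure D1:**
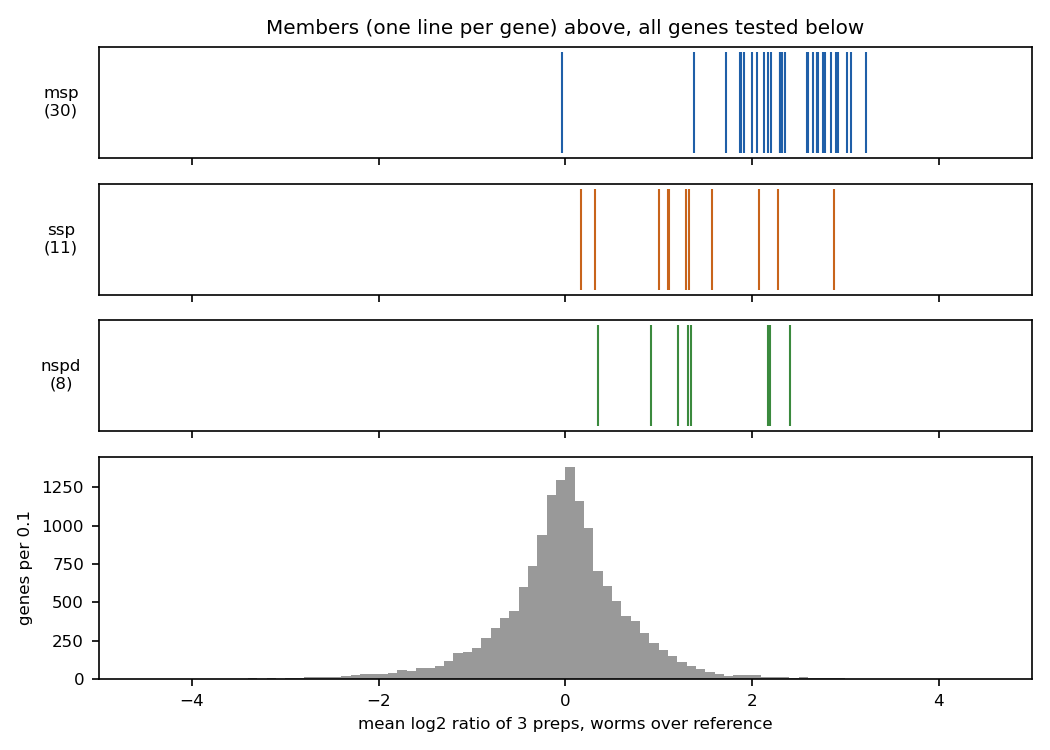
Mean log2 ratio of each member (1 vertical line per gene, by family) above a histogram of the mean log2 ratios of all 15078 genes tested (genes per bin of 0.1). The msp genes lie between 1.38 and 3.23 except for msp-38 near 0, the ssp genes between 0.17 and 2.87 and the nspd genes between 0.35 and 2.41, while all genes centre on 0.00.

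The msp family had the highest median of the 3 families, and the ssp and nspd families had similar ones, with no test made between families. The median over the 30 msp genes was 2.16 in prep 1, 2.38 in prep 2 and 2.55 in prep 3. The median over the 11 ssp genes was 1.05, 1.27 and 1.44 in the same preps, and that over the 8 nspd genes was 1.14, 1.34 and 1.59. The msp median led in each prep, and each family's median was lowest in prep 1 and highest in prep 3. Over all genes the medians were 0.01, −0.02 and −0.00.

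All but 1 of the 30 msp genes stood above the pool. The 29 ran from 2.601-fold to 9.36-fold over the pool, with adjusted p between 1.98e-06 and 5.63e-05 by limma. All 29 were positive in every prep.

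The highest msp gene was msp-33 on chromosome II, at 3.17, 2.88 and 3.62 in preps 1, 2 and 3 (3.23 ± 0.37, SD, n = 3; limma adjusted p = 2.12e-06). The next was msp-64, also on II, at 3.37, 2.73 and 3.09 (3.06 ± 0.32; limma adjusted p = 2.12e-06). msp-56 on chromosome IV was at 2.97, 2.82 and 3.27 (3.02 ± 0.23; limma adjusted p = 2.00e-06). In all 3 genes prep 2 was the lowest. msp-33 was over msp-56 in each prep, while msp-64 was over msp-33 in prep 1 and under it in preps 2 and 3, and no test between genes was made. Below them stood msp-50 on II, at 2.95, 2.74 and 3.08, with the smallest adjusted p of the family (2.92 ± 0.17; limma adjusted p = 1.98e-06). msp-36 on IV was at 2.70, 2.78 and 3.23 (2.904 ± 0.29). msp-57 on IV was at 3.37, 2.403 and 2.77 (2.85 ± 0.49), and its value in prep 1 was close to the highest value of msp-64.

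The lower end of the family was spread more widely. msp-49, on chromosome II, was the lowest of the 29, at 1.18, 1.52 and 1.44 in preps 1, 2 and 3 (1.38 ± 0.18; limma adjusted p = 5.63e-05). msp-32 on II was at 1.94, 1.78 and 1.46 (1.73 ± 0.25). msp-45 on II was at 1.52, 1.88 and 2.22 (1.87 ± 0.35). Every value of these 3 genes was below every value of msp-33, which stood 3.60-fold over msp-49 by their means. msp-81 on IV was at 1.60, 1.68 and 2.38 (1.88 ± 0.43), and msp-142 on II at 1.55, 2.12 and 2.08 (1.92 ± 0.32). msp-81 was over msp-142 in preps 1 and 3 and under it in prep 2.

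A single msp gene was at the level of the pool. msp-38, on chromosome IV beside the pseudogene msp-37 in RefSeq, was at −0.10, −0.00 and 0.01 (−0.03 ± 0.06; limma adjusted p = 0.872). It lay 1.41 below msp-49, the nearest other member of its family, and its preps differed by less than those of most members. Its adjusted p was between 0.605 and 1 under all alternatives tried.

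**Figure D2:**
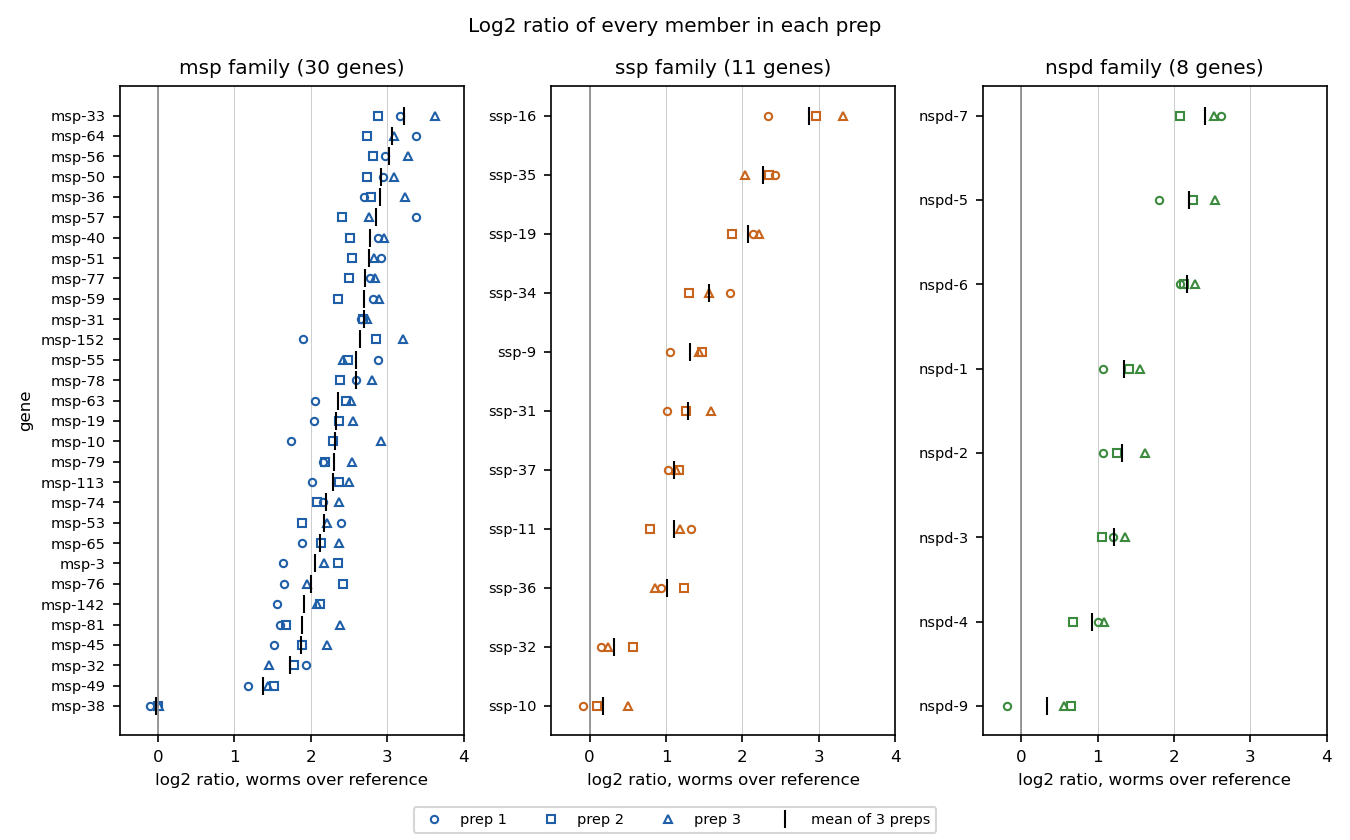
Log2 ratio of worms over pool for every member in each of the 3 preps (open symbols) with the mean (black bar), by family and sorted by mean. All msp genes but msp-38 lie above 1 in each prep, and ssp-10, ssp-32 and nspd-9 have means of 0.17, 0.32 and 0.35.

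The msp genes above the pool were split by mean into a higher set of 14 genes, with means from 2.59 (msp-78) to 3.23, and a lower set of 15, with means from 1.38 to 2.35 (msp-63), with a gap of 0.243 between the sets. A wider gap of 0.347 lies inside the lower set, between msp-32 and msp-49, so the split is one of convenience. The sets differed in which prep was the lowest. Among the 14 higher genes, prep 2 was the lowest for 10, prep 1 for 3 and prep 3 for 1. Among the 15 lower genes, prep 1 was the lowest for 12, prep 2 for 2 and prep 3 for 1. The median of the higher set was 2.88, 2.61 and 2.93 in preps 1, 2 and 3, and that of the lower set 1.88, 2.13 and 2.37. Prep 1 was thus 0.27 over prep 2 in the higher set by these medians and 0.25 under it in the lower set. The split was made on the same values and was seen in them first, so it is a description without a test. Across the 29 genes the values of preps 2 and 3 had a Pearson r of 0.838 and those of preps 1 and 2 an r of 0.673, with the pool shared by all arrays. Over all genes the same pairs had r of 0.919 and 0.822.

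**Figure D3:**
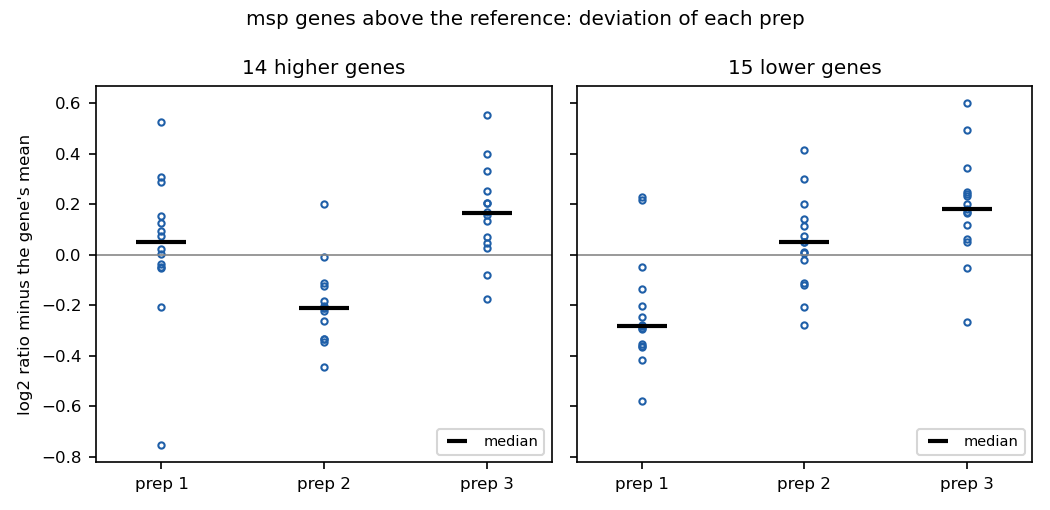
Deviation of each prep from the gene's own mean log2 ratio (circles, 1 per gene) for the 14 higher and the 15 lower msp genes above the pool, with the median as a black bar. In the higher set the medians of prep 2 sit lowest, and in the lower set those of prep 1.

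Neighbouring msp copies did not always share a level. msp-33 and msp-32 are next to each other among the members on chromosome II, yet the ratio of msp-33 was 2.83-fold that of msp-32. msp-50 was 1.54 higher on the log2 scale than msp-49, the nearest member to it, with no overlap of their values. Other pairs were closer. msp-10, at 1.74, 2.29 and 2.92 (2.32 ± 0.59), was 0.43 over its neighbour msp-81. msp-79 was under msp-78 in each prep, with msp-79 minus msp-78 at −0.30 by their means. The widest spread over preps belonged to msp-152 on II, at 1.90, 2.85 and 3.21 (2.65 ± 0.68), and the narrowest to msp-31 on II, at 2.65, 2.68 and 2.74 (2.69 ± 0.04). msp-10, msp-152 and msp-31 were named for their spread or their neighbour after their values were seen.

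The ssp family holds small proteins of sperm that share the MSP fold, and its levels were lower and more uneven. Of 11 genes, 9 were above the pool (81.8%, against 21.7% of all genes) and 2 did not pass. The highest was ssp-16 on chromosome I, at 2.33, 2.97 and 3.32 in preps 1, 2 and 3 (2.87 ± 0.50; limma adjusted p = 5.18e-06). ssp-35, the only member on chromosome V, was at 2.43, 2.35 and 2.04 (2.27 ± 0.21; limma adjusted p = 4.21e-06). ssp-19 on I was at 2.14, 1.87 and 2.22 (2.08 ± 0.18). These were the 3 ssp genes with a mean over 2, and the highest value of the remaining ssp genes in any prep was 1.83.

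A middle group of ssp genes stood about 1 to 1.6 above the pool. ssp-34 on IV was at 1.83, 1.31 and 1.56 (1.57 ± 0.26), and ssp-9 on IV at 1.05, 1.47 and 1.44 (1.32 ± 0.23). ssp-31 and ssp-37, both on I, were each measured by 2 probes. The probes of ssp-31 averaged 1.25 and 1.32, and those of ssp-37 averaged 1.08 and 1.14, so that in each case they differed by less than the SD over preps. By gene, ssp-31 was at 1.29 ± 0.29 and ssp-37 at 1.11 ± 0.07. ssp-11 on IV was at 1.32, 0.80 and 1.18 (1.10 ± 0.27), and ssp-36 on IV at 0.93, 1.24 and 0.86 (1.01 ± 0.20; limma adjusted p = 3.65e-04), with ssp-11 over ssp-36 in preps 1 and 3 and under it in prep 2.

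ssp-32 and ssp-10, both on chromosome IV among msp genes, did not pass. ssp-32 was at 0.16, 0.57 and 0.24 (0.32 ± 0.22; limma adjusted p = 0.0947). It passed without prep 1 (0.404, limma adjusted p = 0.0290) and with blocks of neighbouring probes centred (0.38, limma adjusted p = 0.0347), and its adjusted p over the alternatives ran from 0.0290 to 0.674. ssp-10 was at −0.09, 0.103 and 0.497 (0.17 ± 0.30; limma adjusted p = 0.397), with values on both sides of the pool.

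The nspd genes encode a group of short peptides found in nematode sperm, whose function is not well known. Of 8 genes, 7 were above the pool (87.5%, against 21.7% of all genes) and 1 did not pass. Those above formed a higher and a lower set. nspd-7 on IV was at 2.61, 2.08 and 2.53 in preps 1, 2 and 3 (2.41 ± 0.29; limma adjusted p = 4.31e-06). nspd-5 on II was at 1.80, 2.25 and 2.54 (2.196 ± 0.37), and nspd-6 on IV was at 2.09, 2.14 and 2.28 (2.17 ± 0.10). All 3 lay above 1.8 in every prep, and their order changed between preps.

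The highest value of the other nspd genes in any prep was 1.62. nspd-1, on chromosome I, was at 1.07, 1.42 and 1.55 (1.35 ± 0.25), and nspd-2 on IV at 1.07, 1.26 and 1.62 (1.32 ± 0.28). nspd-3 on IV was at 1.205, 1.06 and 1.37 (1.21 ± 0.15). nspd-4 on II was the lowest that passed, at 1.002, 0.68 and 1.09 (0.92 ± 0.22; limma adjusted p = 6.33e-04). nspd-9, the only member on chromosome III, was at −0.18, 0.66 and 0.56 (0.35 ± 0.46; limma adjusted p = 0.148). Prep 1 was its lowest value. Without that prep nspd-9 was at 0.61 and passed (limma adjusted p = 0.00228), and its adjusted p ran from 0.00228 to 0.652 over the alternatives. The fit without prep 1 rests on preps 2 and 3 alone, the most alike pair over all genes (Pearson r of 0.919). In it 2 members gained a call and 0 lost one, so a pass there is not on the footing of the main fit.

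The members sit in a few stretches of the genome, an arrangement long known for the msp genes. With members taken as 1 stretch when no more than 100 protein-coding genes separate neighbours, 38 of the 49 lay in 3 stretches. The stretch on chromosome II held 10 msp and 2 nspd genes, all above the pool, with a median of 2.20. The first on chromosome IV held 8 msp, 2 ssp and 2 nspd genes, all above the pool, with a median of 2.23. The second on IV held 9 msp, 3 ssp and 2 nspd genes, of which 11 were above, with a median of 2.15. Levels were thus alike between the stretches, and the msp genes on II (13 genes, median 2.35) and on IV (17 genes, median 2.32) gave nearly the same medians.

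Among genes of other families beside the members, a larger share was above the pool than among all genes. The nearest protein-coding genes on both sides of each member came to 74 genes, of which 62 were measured. Of these, 33 were above (53.2%), 8 below and 21 did not pass, against 21.7% above among all genes, 26.2% on chromosome II and 26.7% on IV. Their median was 0.45, far under that of the members. No test was made of this share. Of the 16 measured neighbours in the first stretch on IV, 12 were above. Of the 16 in the second on IV, 8 were, and of the 13 in the stretch on II, 5 were.

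Several of these neighbours have sperm names themselves. ssq-1, beside ssp-10, was at 2.27, 2.28 and 2.56 (2.37 ± 0.16), while ssp-10 itself was near 0. sss-1 lies between the members ssp-10 and msp-77 and was at 2.06, 2.21 and 2.68 (2.32 ± 0.32). ssq-2, between ssp-9 and ssp-11, was at 2.30, 2.20 and 2.57 (2.36 ± 0.19), which was over both of them. The highest neighbour was srb-13, named as a member of a chemoreceptor family, beside msp-45 on chromosome II. It was at 3.02, 2.705 and 3.28 (3.001 ± 0.29; limma adjusted p = 2.12e-06), over each value of msp-45. Whether its probe holds signal of an msp copy was not tested. Other neighbours were far below the pool, such as the caveolin gene cav-1 beside msp-78 at −2.04 ± 0.28 and the neuropeptide gene nlp-47 beside msp-51 at −2.06 ± 0.37. The 6 neighbours named here were picked after their values were seen.

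**Figure D4:**
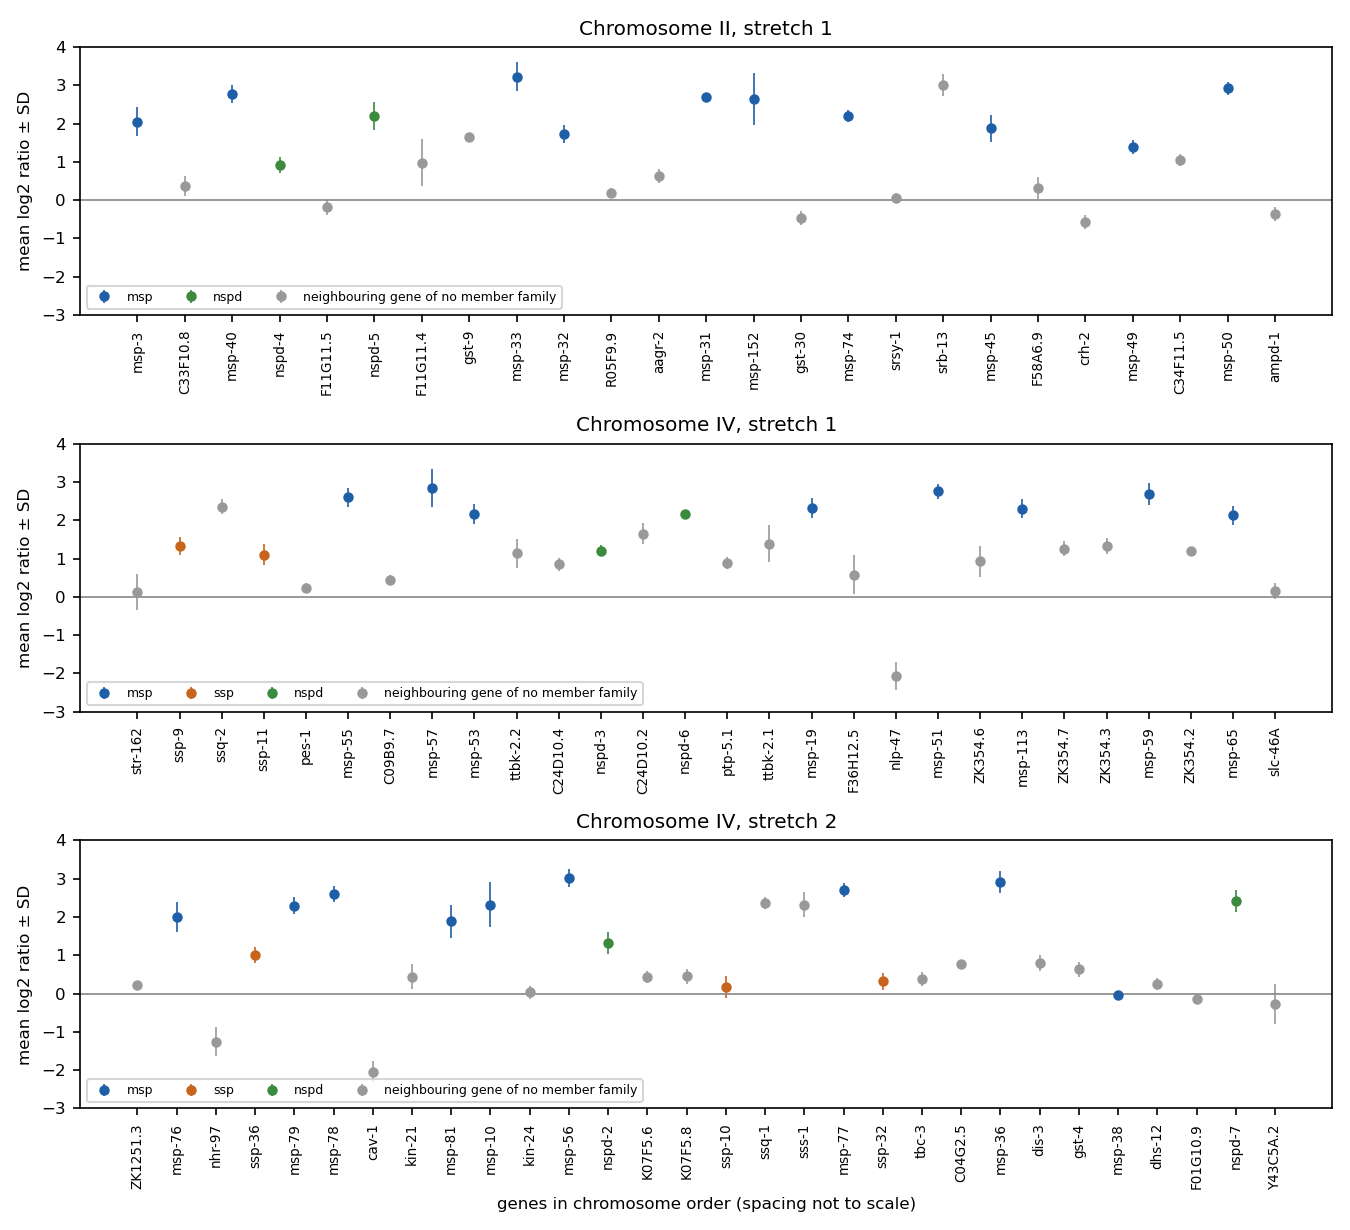
Mean log2 ratio ± SD over 3 preps for members (coloured by family) and their nearest measured protein-coding neighbours (grey), in chromosome order without scale, in the 3 stretches that hold most members. Members stand at 1 to 3 almost throughout, while grey neighbours run from −2.06 for nlp-47 to 3.001 for srb-13.

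Other genes of the MSP system were compared from fixed lists. Of 5 relatives with an MSP domain, 2 were above the pool (40%, against 21.7% of all genes) and 3 did not pass. msd-4 was at 2.91 ± 0.27 and msd-3 at 2.57 ± 0.29, both within the range of the msp genes, whereas msd-1 at 0.15 ± 0.20 and msd-2 at −0.04 ± 0.25 did not pass.

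Of 16 genes listed for the assembly of MSP fibres and fibrous bodies, only 8 were measured. Of these 8, 7 were above (87.5%, against 21.7% of all genes). The other 1 did not pass, and the median of the list was 1.21. gsp-4, which encodes a sperm protein phosphatase, was at 1.59, 2.15 and 2.38 (2.04 ± 0.41; limma adjusted p = 1.93e-05). spe-18, which acts in fibrous bodies, was at 1.96 ± 0.29. The lowest were fer-1, a ferlin needed for fusion of the membranous organelles, at 0.44 ± 0.19 (limma adjusted p = 0.0265), and spe-4, a presenilin of the same organelles, at 0.44 ± 0.41 (limma adjusted p = 0.0598). The call of fer-1 ended without prep 2 (0.34, limma adjusted p = 0.301) and without prep 3 (0.47, limma adjusted p = 0.0949), and spe-4 passed without prep 1 (0.65, limma adjusted p = 0.00286). Over the alternatives the adjusted p of fer-1 ran from 0.00761 to 0.301 and that of spe-4 from 0.00286 to 0.426.

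Sperm chromatin and meiosis genes stood near the msp level. Of 6, 5 were above (83.3%, against 21.7% of all genes) and 1 did not pass, with a median of 2.17. smz-2, a PDZ protein of sperm meiosis, was at 2.79, 2.90 and 2.97 (2.89 ± 0.09), and the sperm chromatin gene spch-3 at 2.38 ± 0.21. htas-1, a sperm histone H2A variant, was at 1.25 ± 0.49. spch-1 at 0.06 ± 0.22 did not pass, although spch-2 and spch-3 of the same name were above 2 in every prep.

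Genes that receive the MSP signal were called at about the rate of all genes. Of 16 measured, 4 were above (25%, against 21.7% of all genes), 3 below (18.8%, against 22.2%) and 9 did not pass, with a median of 0.26. Among those above, oma-1 and oma-2 are also counted as oocyte markers below. oma-1, a zinc finger protein of oocyte maturation, was at 1.62, 1.13 and 0.86 (1.203 ± 0.39; limma adjusted p = 3.50e-04), and the phosphatase gene ptp-2 at 0.802 ± 0.26. The kinase gene unc-43 was at −0.61 ± 0.04, and ceh-18, a homeobox gene of the gonadal sheath, at −0.57 ± 0.18 (limma adjusted p = 0.00731). With arrays scaled to equal spread the calls of ptp-2 (0.899, limma adjusted p = 0.0518), unc-43 (−0.66, limma adjusted p = 0.0672) and ceh-18 (−0.63, limma adjusted p = 0.0944) ended. The call of ceh-18 also ended without prep 2 (−0.498, limma adjusted p = 0.0938), and over the alternatives the adjusted p ran from 0.00130 to 0.112 for ceh-18, from 0.00142 to 0.116 for ptp-2 and from 0.00257 to 0.0735 for unc-43. vab-1, which encodes the Eph receptor that binds MSP, was at 0.66, 0.38 and −0.22 (0.27 ± 0.45; limma adjusted p = 0.247). It was named for its role, outside the rule for named genes.

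Of 5 listed regulators of sperm fate and sperm genes, 3 were measured, and 1 of these was above (33.3%, against 21.7% of all genes). Another 1 was below (33.3%, against 22.2%), and 1 did not pass. The transcription factor gene spe-44 was at 0.75 ± 0.14, fog-3 at −0.10 ± 0.34 and the GATA factor gene elt-1 at −0.53 ± 0.33 (limma adjusted p = 0.0206). With arrays scaled to equal spread the calls of spe-44 (0.84, limma adjusted p = 0.0576) and elt-1 (−0.65, limma adjusted p = 0.138) ended. The call of elt-1 also ended without prep 2 (−0.34, limma adjusted p = 0.298), and over the alternatives the adjusted p ran from 0.00597 to 0.298 for elt-1 and from 5.36e-04 to 0.0855 for spe-44.

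Other groups of nematode-specific peptides lay on both sides of the pool. Of 18 genes in the nspa, nspb and nspc groups, 6 were above (33.3%, against 21.7% of all genes), 4 below (22.2%, the same share as over all genes) and 8 did not pass. All 4 nspc genes were below, with nspc-20 at −2.66, −2.64 and −3.47 (−2.93 ± 0.47; limma adjusted p = 4.21e-06) and nspc-9 at −2.16 ± 0.09. Of 5 nspa genes 4 were above (80%), with nspa-8 at 1.10 ± 0.42 and nspa-1 at 1.001 ± 0.25. Of 9 nspb genes 2 were above (22.2%), about the share of all genes.

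Markers of oocytes and of male-specific neurons, only some of the other sources whose RNA whole worms could hold, were set beside the members. Of 13 measured oocyte markers, 11 were above (84.6%, against 21.7% of all genes) and 2 did not pass. Their median was 0.98 in prep 1, 0.96 in prep 2 and 0.55 in prep 3, so the lowest prep for them was the one in which the members' medians were highest. The eggshell gene cbd-1 was at 2.04, 1.97 and 1.44 (1.82 ± 0.33), and the yolk receptor gene rme-2 at 2.17, 1.84 and 1.34 (1.78 ± 0.42). perm-2 was at 0.02 ± 0.17 and egg-1 at −0.27 ± 0.26. The adult cuticle collagens had medians of 2.22, 2.20 and 3.24 in preps 1, 2 and 3. Of these genes, col-62 and col-7 were highest in prep 3 and col-19 in prep 2. The part of these shifts between preps in the members' values was not tested. Of 9 male-specific neuron markers, 1 was below (11.1%, against 22.2% of all genes) and 8 did not pass. Their medians were 0.03, 0.01 and −0.07 in preps 1, 2 and 3. lov-1 was at 0.37 ± 0.23 and cil-7 at 0.16 ± 0.27, while cwp-2 was at −0.13 ± 0.18 and cwp-4 at −0.73 ± 0.25 (limma adjusted p = 0.00266). lov-1 passed without prep 1 (0.47, limma adjusted p = 0.0144), and its adjusted p ran from 0.0144 to 0.502 over the alternatives. These are ratios to a pool of unknown sex makeup, so they do not give the amount of male RNA.

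**Figure D5:**
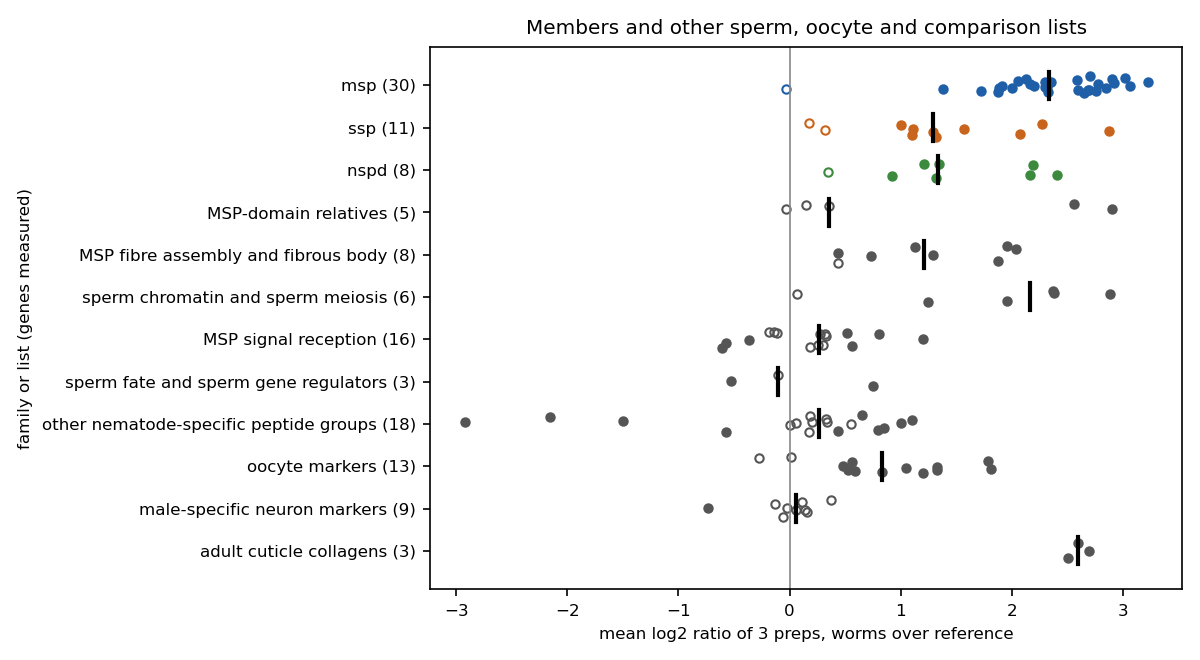
Mean log2 ratio over 3 preps of each gene in the 3 member families and in the other lists (points, filled where the limma test passed and open where not), with the list median as a black bar. The msp median of 2.34 and the sperm chromatin median of 2.17 stand over that of the oocyte markers at 0.83 and that of the signal reception genes at 0.26. The oocyte and signal reception lists share oma-1 and oma-2.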

How the data were processed

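The authors deposited 1 log2 ratio for each probe on each array. That the base is 2 follows from the values themselves: with base 2, 100.0% of ratios under 1 fall on multiples of 0.001 (tolerance 0.01 of a multiple), against 3.12% with base e. No source used here names the dyes, the background correction, the normalization or the tools. Column medians lay between 0.01 and 0.02, so no further centring was applied, and spot brightness was not analysed here. Of 20000 probes, 19664 had a value on all 3 arrays, and the number of arrays limits the precision. The platform's annotation named the probes, and genes with several probes were averaged per array, giving 15078 genes. Chromosomes and gene order came from RefSeq (WBcel235).

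limma 3.58.1 in R 4.3.3 tested each mean against 0 with lmFit and eBayes, two-sided, and p-values were adjusted over all genes by Benjamini-Hochberg. The pool's own spread is not in the test. On simulated ratios for 15078 genes, 50 genes were raised by each of 0.5, 1, 2 and 3. Of those raised by 0.5, 6% were called, of those raised by 1, 86%, and of those raised by 2 or 3, 100%, with 6 false calls. In the data 44.0% of genes were called, which makes the adjusted cutoff less strict than in the simulation. The simulated rates therefore do not carry over to the data. Alternatives were other centring, scaling and quantile normalization, probes in place of genes, the median of probes, genes on at least 2 arrays, robust or no moderation, a 1.2-fold margin, blocks of 200 probes centred, and each prep left out. With a prep left out only 2 arrays remain, so calls gained or lost there are not on the footing of the main fit. Members and lists were chosen with earlier results of these data known. Values were given for the 6 highest and 6 lowest msp genes (msp-38 included), all ssp and nspd genes, and the 2 highest and 2 lowest genes of each list. Protein and promoter sequences were not used here.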

Additional observations from a re-analysis of the deposited data

How the results depend on the processing

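The counts of msp, ssp and nspd genes above the pool were 29, 9 and 7. With variances estimated gene by gene, without moderation across genes, the test is an ordinary one-sample t test. Its counts were 0 msp, 0 ssp, 0 nspd and 0 of all 49 members, since 0 of all 15078 genes passed there (smallest t test adjusted p 0.0665). At an unadjusted p of 0.05 the same fit gave 29 msp, 9 ssp and 7 nspd genes, and 45 members in all. It gave 5400 of all 15078 genes. Under the other alternatives the count of members above ran from 45 to 47, with ssp-32 and nspd-9 added, and 0 were below. With each prep left out in turn, the median ran from 2.23 to 2.48 for msp, from 1.14 to 1.43 for ssp and from 1.21 to 1.46 for nspd. With arrays scaled to equal spread, 7 of 34 named genes of the other lists lost their call (ceh-18, cwp-4, elt-1, fer-1, ptp-2, spe-44 and unc-43). No member lost its call there, but the members' calls came close to the cutoff. The limma adjusted p rose from 2.12e-06 to 0.0389 for msp-33 and from 3.65e-04 to 0.0463 for ssp-36. The setting thus weakened the test for members too. Against a 1.2-fold margin, ceh-18, elt-1 and fer-1 lost their calls. With blocks of 200 probes centred, ceh-18 and fer-1 lost their calls and egg-1 gained one. No paired analysis was possible because the arrays form 1 group. The arrays share 1 pool, no dye swap is known, and dim spots could not be removed from ratios.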
